A study of Homo sapiens with 8 samples.

Results

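The genes described are 10 members of the glutathione and NRF2 antioxidant program, chosen by a list of symbols: GCLC, GCLM, GSS, GSR, GPX1, GPX4, TXNRD1, SRXN1, HMOX1 and NQO1. All 10 were found, each as 1 of the 60332 genes in the expression table, and all 10 were among the 15175 genes tested, whose mean across the 8 libraries was 1 FPKM or more, although HMOX1 passed that filter through its level in RD-ES alone. The RNA came from RD-ES and SK-N-MC, established cell lines from Ewing sarcoma (EwS), a bone and soft tissue tumor driven by the EWSR1::FLI1 fusion. In each line, eKD2 cells, infected with lentivirus for dCas9-KRAB (a DNA-binding repressor without nuclease activity) and a guide RNA next to the GGAA repeat of the LOXHD1 enhancer, were compared with control cells, which the labels describe as infected with empty dCas9-KRAB virus and the paper's account of this experiment as parental. Infection was at a multiplicity of 10, puromycin at 1 µg/ml was given for 3 days, and cells were used within 5 passages. The eKD2 cells were polyclonal pools, only 1 guide was used, and each of the 4 groups had 2 libraries. The methods call them biological duplicates, but the labels do not tie them to separate cultures, so p-values measure the spread between these libraries, which may be technical.

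Glutathione is a small cysteine-containing peptide that keeps the cytosol reduced. Glutamate-cysteine ligase makes its first bond and glutathione synthetase its second, peroxidases spend it on peroxides and glutathione reductase restores it with NADPH, while the thioredoxin system runs in parallel. Many of these genes are induced by NRF2 (gene NFE2L2), a transcription factor that KEAP1 marks for degradation under resting conditions and that binds antioxidant response elements (AREs), sites that BACH1 can occupy as a repressor. NRF2 is controlled largely at the protein level, which RNA does not show.

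The targeted gene was measured first. LOXHD1 RNA fell from 21.4 and 21.2 to 1.04 and 1.02 FPKM in RD-ES and from 159 and 169 to 11.0 and 12.0 FPKM in SK-N-MC, with adjusted p-values from limma of 1.1e-04 and 3.7e-05, so every library matched its label. With RD-ES fitted alone the adjusted p was 0.059 at the same fold, the highest over the alternatives. FPKM is a read number divided by transcript length and library size. Estimated depth ran from 7.6 to 30.7 M reads (M, mega), lowest in RD-ES eKD2 replicate 1. Of the 8 Ewing markers examined, all were detected in every library, including FLI1 at 20.3 to 26.9 FPKM and CD99 at 201 to 586 FPKM. Of markers of other cells, CD3E and MYOG were at 0 everywhere and MYOD1 reached at most 0.079 FPKM, whereas PTPRC was at 0 to 0.017 FPKM in RD-ES and 19.2 to 22.6 FPKM in SK-N-MC, and EPCAM at 0.30 to 0.97 FPKM and 2.96 to 4.54 FPKM. These marker differences between the lines lie alongside every line difference given here, and their part in it was not tested.

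Promoter sequence was searched for the core of the ARE, TGACNNNGC on either strand, in RefSeq windows (GRCh38.p14) from 250 bases before to 50 bases after annotated starts. Windows were found for 7 of the 10 members, 10 windows in all. The core was present in 3 of these windows, all of GCLM and TXNRD1, against 13.3% of all 35116 windows. The 30 bases around each match are shown because these elements define the program, with the match in capitals and the gene's own strand read 5′ to 3′.
GCLM, chr1:93909445-93909474, minus strand, core on the opposite strand: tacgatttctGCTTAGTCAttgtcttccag
TXNRD1, chr12:104215670-104215699, plus strand, core on the same strand: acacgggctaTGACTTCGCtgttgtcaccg
TXNRD1, chr12:104215761-104215790, plus strand, core on the opposite strand: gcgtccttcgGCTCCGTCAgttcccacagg
TXNRD1, chr12:104286920-104286949, plus strand, core on the opposite strand: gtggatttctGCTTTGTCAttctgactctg
The GCLM match begins 34 bases from the annotated start, and the last TXNRD1 match belongs to a second start of that gene. A match is a string of letters in a window and says nothing of binding in these cells. No match was found in the windows of GCLC, GPX1, GPX4, SRXN1 and NQO1, which says only that these letters are not in those stretches.

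In control cells the members covered a wide range of levels, which FPKM allows to be compared between genes because it is per transcript length. GPX4 was highest in both lines, with a mean of 280.2 ± 26.9 FPKM in RD-ES and 325 ± 33.4 FPKM in SK-N-MC (SD, n = 2 each), above 97.3% and 98.1% of the tested genes. TXNRD1 came next at 219.9 ± 11.0 FPKM and 172 ± 9.09 FPKM. HMOX1 was lowest in both, at 2.83 ± 0.104 FPKM in RD-ES and 0.162 ± 0.164 FPKM in SK-N-MC. In RD-ES the order was GPX4, TXNRD1, GPX1, GSR, GCLC, GSS, NQO1, SRXN1, GCLM and HMOX1, and only the neighbours NQO1 and SRXN1 overlapped between libraries. In SK-N-MC it was GPX4, TXNRD1, GSR, GCLC, GSS, GPX1, NQO1, SRXN1, GCLM and HMOX1, and only GSS and GPX1 overlapped. GPX1 thus held the place above GSR in RD-ES and stood below GSR, GCLC and GSS by mean in SK-N-MC.

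**Figure D1:**
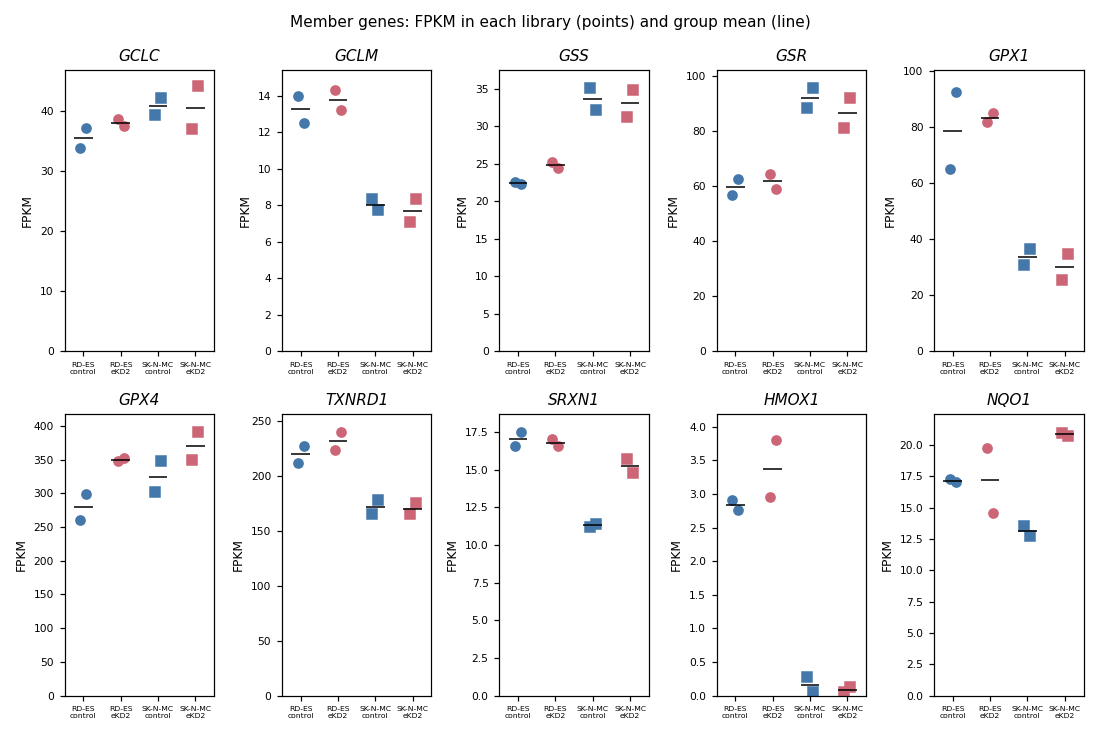
FPKM of each of the 10 genes (vertical axes, starting at 0) in the 8 libraries, as points by group, with a line at each group mean. SRXN1 and NQO1 in SK-N-MC eKD2 (14.8 to 15.7 and 20.7 to 21.0 FPKM) lie above both SK-N-MC control libraries (11.2 to 11.4 and 12.7 to 13.6 FPKM), and GPX4 is higher in the eKD2 libraries of both lines.

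The basal program was then compared between the control cells of the lines. Of the 10 members, 7 differed past an adjusted p of 0.05 (limma), 2 higher and 5 lower in SK-N-MC, against 57.8% of all genes tested (31.4% higher and 26.4% lower). One of the 7 was HMOX1, which had to differ given how it passed the filter. The groups did not overlap for any of the 10, 4 higher and 6 lower in SK-N-MC, against 43.2% of all genes higher and 36.7% lower, so a difference between these lines was common among genes at large. Scaling each library to the same median moved the median of all genes in this comparison by -0.11 on the log2 scale, and no member turned its direction under it or under quantile normalization. With 1 line on each side, line and anything else that separates the cultures cannot be told apart, and a lower level in bulk RNA cannot tell fewer expressing cells from less RNA per cell.

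The synthesis and recycling enzymes are given first. Positions given beside each gene are its full span in GRCh37. GSS (ENSG00000100983.9_2, chr20:33516235-33543830, minus strand), glutathione synthetase, was at 22.6 and 22.3 FPKM in RD-ES and 35.2 and 32.2 FPKM in SK-N-MC, a log2 difference of 0.56 (standard error 0.084, limma adjusted p = 0.0020). GSR (ENSG00000104687.12_3, chr8:30535583-30585363, minus strand), glutathione reductase, was at 56.5 and 62.7 FPKM against 88.3 and 95.4 FPKM, a log2 difference of 0.62 (standard error 0.099, adjusted p = 0.0026). Both were higher in SK-N-MC, whereas of the glutamate-cysteine ligase subunits GCLM was lower and GCLC did not pass the test. GCLM (ENSG00000023909.9_2, chr1:94350755-94375012, minus strand), the modifier subunit, was at 13.97 and 12.5 FPKM in RD-ES and 8.32 and 7.72 FPKM in SK-N-MC, a log2 difference of -0.66 (standard error 0.11, adjusted p = 0.0032). GCLC (ENSG00000001084.10_3, chr6:53362139-53481768, minus strand), the catalytic subunit, was at 33.9 and 37.1 FPKM in RD-ES and 39.4 and 42.2 FPKM in SK-N-MC, without overlap between the lines (log2 difference 0.19, 95% interval -0.060 to 0.45, adjusted p = 0.16).

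Of the peroxidases, GPX1 was lower in SK-N-MC and GPX4 did not pass the test. GPX1 (ENSG00000233276.3_3, chr3:49394607-49396038, minus strand), the abundant cytosolic selenoenzyme, was at 64.9 and 92.4 FPKM in RD-ES and 30.6 and 36.6 FPKM in SK-N-MC, a log2 difference of -1.19 (standard error 0.21, limma adjusted p = 0.0041). GPX4 (ENSG00000167468.16_3, chr19:1103981-1106790, plus strand), which reduces lipid peroxides in membranes and restrains ferroptosis, was at 261 and 299 FPKM in RD-ES and 301 and 349 FPKM in SK-N-MC, which did not pass the test (log2 difference 0.21, 95% interval -0.040 to 0.47, adjusted p = 0.13). The difference of the 2 RD-ES control libraries in GPX1 was, relative to its level, the widest replicate gap of any member above 1 FPKM. Another annotated gene on the same strand, not analysed here, covers 39.9% of the exonic bases of GPX1, and reads of both cannot be told apart there.

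The other members were lower in SK-N-MC. TXNRD1 (ENSG00000198431.15_3, chr12:104609557-104744085, plus strand), cytosolic thioredoxin reductase, was at 212 and 228 FPKM in RD-ES and 166 and 178 FPKM in SK-N-MC, a log2 difference of -0.35 (standard error 0.074, limma adjusted p = 0.0075). SRXN1 (ENSG00000271303.1_3, chr20:627259-633844, minus strand), sulfiredoxin, which repairs overoxidized peroxiredoxins, was at 16.6 and 17.5 FPKM against 11.2 and 11.4 FPKM, a log2 difference of -0.55 (standard error 0.075, adjusted p = 0.0013). HMOX1 (ENSG00000100292.16_2, chr22:35776354-35790207, plus strand), the heme oxygenase that BACH1 represses, was at 2.90 and 2.76 FPKM in RD-ES and 0.278 and 0.0465 FPKM in SK-N-MC, where the estimated depth puts it near 11.6 and 0.838 reads. It was present at a low level in RD-ES and close to the detection limit in SK-N-MC, and its fitted difference depended on the pseudocount, at -1.73 with 1 FPKM and -3.64 with 0.1 FPKM. NQO1 (ENSG00000181019.12_2, chr16:69740899-69760571, minus strand), the quinone reductase often read as an NRF2 output, was at 17.3 and 17.1 FPKM in RD-ES and 13.6 and 12.7 FPKM in SK-N-MC, short of the threshold (log2 difference -0.36, adjusted p = 0.065).

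**Figure D2:**
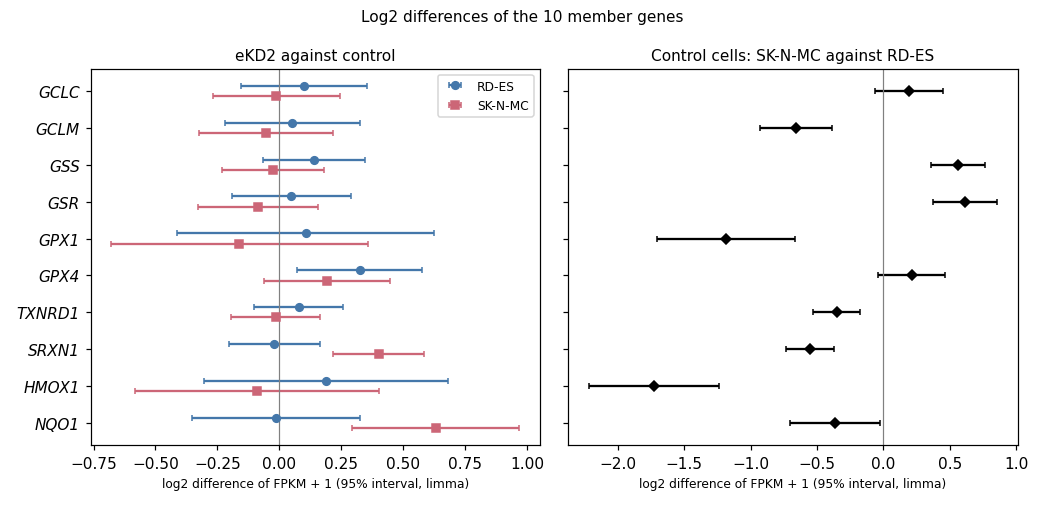
Differences of the 10 genes in log2(FPKM + 1), with 95% intervals from limma, for eKD2 against control in each line (left) and for SK-N-MC control against RD-ES control (right). On the left the intervals of GPX4 in RD-ES and of SRXN1 and NQO1 in SK-N-MC leave 0 out before adjustment over all genes, and on the right those of 8 genes do.

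Next, eKD2 was compared with control in each line. With only 1 guide, enhancer silencing and anything else that separates the eKD2 from the control cells cannot be told apart. The eKD2 effect named below is the difference between these cells. In RD-ES no member passed the adjusted threshold (limma), against 0.343% of all genes tested, and 1 member, GPX4, had an unadjusted p under 0.05, against 12.3% of all genes. Of those genes at large 69.1% were higher in eKD2 as deposited, 41.2% after median scaling and 53.7% after quantile normalization. The log2 difference was above 0 in 8 of 10 members (6 after median scaling, which turned GCLM and GSR, and 7 after quantile normalization, which turned GCLM), with a median log2 difference of 0.089 against 0.031 over all genes tested, 56.2% of which were above 0. Both eKD2 libraries lay above both controls in 4 members (GCLC, GSS, GPX4 and HMOX1) and below them in none, against 24.2% and 15.1% of all genes. The smallest two-sided p that an exact permutation of 2 against 2 libraries can give is 0.333, so the tests rest on limma.

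In SK-N-MC likewise no member passed the adjusted threshold, against 0.323% of all genes, while 2 members, NQO1 and SRXN1, had an unadjusted p under 0.05, against 13.0% of all genes. Here 3 members were above 0 and 7 below (6 and 4 after quantile normalization, which turned GCLC, GSS and TXNRD1), with a median of -0.021 against -0.0049 over all genes, 47.6% of which were above 0. The eKD2 libraries lay above both controls in 3 members (GPX4, SRXN1 and NQO1) and below them in none, against 22.2% and 25.1% of all genes. These shares are small numbers of genes, and they do not set the members apart from genes at large.

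NQO1 and SRXN1 had the largest differences in SK-N-MC. NQO1 was at 13.6 and 12.7 FPKM in controls and 21.0 and 20.7 FPKM in eKD2, the means being 13.1 ± 0.601 and 20.9 ± 0.192 FPKM (SD, n = 2 each). The log2 difference was 0.63 (1.55-fold, 95% interval 0.29 to 0.97, unadjusted p = 0.0038, limma adjusted p = 0.19). SRXN1 was at 11.2 and 11.4 FPKM in controls and 15.7 and 14.8 FPKM in eKD2, a log2 difference of 0.40 (1.32-fold, 95% interval 0.22 to 0.58, unadjusted p = 0.0017, adjusted p = 0.15). For both genes every eKD2 library exceeded every control library by more than the replicates differed, and neither passed the correction over all genes.

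In RD-ES the same genes showed no such separation. NQO1 was at 17.3 and 17.1 FPKM in controls and 19.8 and 14.6 FPKM in eKD2, the eKD2 libraries lying on either side of the controls (log2 difference -0.014, 95% interval -0.35 to 0.32). SRXN1 was at 16.6 and 17.5 FPKM in controls and 17.0 and 16.6 FPKM in eKD2 (log2 difference -0.020, 95% interval -0.20 to 0.16). The difference of the eKD2 effect between the lines, tested as an interaction, was 0.64 for NQO1 (SK-N-MC minus RD-ES, unadjusted p = 0.016, limma adjusted p = 0.27) and 0.42 for SRXN1 (unadjusted p = 0.0073, adjusted p = 0.23). No member passed the adjusted threshold in that test, against 0.244% of all genes, and these 2 had an unadjusted p under 0.05, against 13.5%, of which 32.4% were higher as deposited and 56.3% after median scaling. In SK-N-MC eKD2, SRXN1 at 15.2 ± 0.621 FPKM was still below its level in RD-ES control, 17.1 ± 0.633 FPKM, while NQO1 at 20.9 ± 0.192 FPKM was above its RD-ES control level of 17.2 ± 0.127 FPKM. SRXN1 shares 90.7% of its exonic bases with an overlapping gene model on the same strand that was listed at a mean of 0.0011 FPKM, so its values carry reads of the shared exons.

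GPX4 was the member that lay higher in eKD2 in both lines. It was at 261 and 299 FPKM in RD-ES control and 348 and 352 FPKM in RD-ES eKD2, a log2 difference of 0.32 (1.25-fold, 95% interval 0.070 to 0.58, unadjusted p = 0.020, limma adjusted p = 0.31). In SK-N-MC it was at 301 and 349 FPKM in controls and 350.3 and 392 FPKM in eKD2, a log2 difference of 0.19 (95% interval -0.062 to 0.44, unadjusted p = 0.11, adjusted p = 0.51). The groups did not overlap in either line, but in SK-N-MC the second control library and the first eKD2 library nearly coincided. Leaving out each library in turn gave 0.23 to 0.42 for the RD-ES difference and 0.087 to 0.30 for that of SK-N-MC. The difference between the lines was -0.13 (adjusted p = 0.74).

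For the synthesis and recycling enzymes the differences with eKD2 were small in both lines. GCLC was at 38.7 and 37.5 FPKM in eKD2 cells of RD-ES and 37.0 and 44.1 FPKM in those of SK-N-MC, with log2 differences of 0.098 (95% interval -0.16 to 0.35) and -0.012 (-0.27 to 0.24). GCLM was at 14.3 and 13.2 FPKM and at 7.07 and 8.33 FPKM, with log2 differences of 0.052 (-0.22 to 0.32) and -0.055 (-0.33 to 0.22). For both ligase subunits the widest limit in either direction was 0.353 on the log2 scale, that of GCLC in RD-ES. These intervals are unadjusted and rest on 2 libraries a group. GSS was at 25.3 and 24.5 FPKM in RD-ES eKD2, above both controls, and at 31.3 and 34.9 FPKM in eKD2 cells of SK-N-MC, where the groups overlapped (log2 differences 0.14 and -0.026, limma adjusted p = 0.55 and 0.95). GSR was at 64.5 and 58.8 FPKM and at 81.1 and 92.0 FPKM, overlapping its controls in both lines (log2 differences 0.048 and -0.087, adjusted p = 0.89 and 0.79).

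TXNRD1, GPX1 and HMOX1 gave no separation past the test either. TXNRD1 was at 224 and 241 FPKM in eKD2 cells of RD-ES and 165 and 175 FPKM in those of SK-N-MC, with log2 differences of 0.079 (95% interval -0.10 to 0.26) and -0.015 (-0.19 to 0.16). GPX1 was at 81.7 and 85.1 FPKM and at 25.5 and 34.8 FPKM, and its wide replicate gap left intervals of -0.41 to 0.62 in RD-ES and -0.68 to 0.36 in SK-N-MC. HMOX1 was at 2.95 and 3.80 FPKM in RD-ES eKD2 (log2 difference 0.19, limma adjusted p = 0.75). With eKD2 in SK-N-MC it was at 0.0520 and 0.123 FPKM, near 1.67 and 4.11 reads. The log2 difference was -0.089 (95% interval -0.58 to 0.40), and from so low a level a further fall was not detectable at this depth.

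The other genes of the pathway were taken from 8 lists of 90 genes, of which 81 were tested. The regulators came first. NFE2L2, which encodes NRF2, was at 52.0 and 53.8 FPKM in RD-ES control and 71.9 and 62.4 FPKM in RD-ES eKD2 libraries, and at 75.2 and 77.8 FPKM in the SK-N-MC control libraries and 57.2 and 60.7 FPKM in the eKD2 ones. The groups did not overlap in either line, with eKD2 higher in RD-ES (log2 difference 0.33, unadjusted p = 0.0079, limma adjusted p = 0.24) and lower in SK-N-MC (-0.37, unadjusted p = 0.0049, adjusted p = 0.20). Of all genes, 24.2% lay higher without overlap in RD-ES and 25.1% lower in SK-N-MC. The interaction for NFE2L2 was -0.70 (unadjusted p = 0.0011, adjusted p = 0.14). The members with the largest differences in SK-N-MC, NQO1 and SRXN1, lay higher in the libraries in which NFE2L2 RNA lay lower. None of these differences passed the adjusted threshold, and a relation between them was not tested.

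KEAP1, the adaptor that targets NRF2, was at 51.3 and 48.8 FPKM in RD-ES control, 47.0 and 36.9 FPKM in RD-ES eKD2, 46.0 and 53.9 FPKM in SK-N-MC control and 55.3 and 60.7 FPKM in the last group, SK-N-MC eKD2 (log2 differences -0.26 and 0.21, limma adjusted p = 0.51 and 0.56). BACH1 was at 26.3 and 19.7 FPKM, 36.4 and 24.1 FPKM, 31.8 and 28.7 FPKM, and 22.2 and 26.2 FPKM in the same order (log2 differences 0.36 and -0.31, adjusted p = 0.56 and 0.62). Leaving out each library in turn gave RD-ES differences of -0.43 to -0.088 for KEAP1 and 0.075 to 0.65 for BACH1. Neither passed the test in either line, and of the 10 regulators none did.

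Of the 81 other pathway genes, 6 rose in RD-ES eKD2 past the adjusted threshold and none fell, with a median over the 81 of 0.0050 (-0.064 after median scaling and -0.0039 after quantile normalization). The adjusted calls compare with 0.343% of all genes. The lists were chosen with earlier results of these data known, so this comparison is no test of them. None of the 6 passed with RD-ES fitted alone. They were SLC7A11, CTH, CHAC1, SESN2, TXNIP and MTHFD2. At an unadjusted p under 0.05, 17 were higher and 6 lower, against 8.49% and 3.79% of all genes. SK-N-MC had none past the adjusted threshold by limma, against 0.323% of all genes, although SESN2, AKR1B1 and FTH1 passed in some alternatives, and 11 were higher and 7 lower at an unadjusted p under 0.05, against 5.71% and 7.29% of all genes, and the median was 0.026.

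Of the 6, 3 belong to cysteine supply and glutathione turnover. SLC7A11, the cystine importer that feeds glutathione synthesis, was at 10.9 and 11.2 FPKM in RD-ES control and 28.5 and 22.6 FPKM in RD-ES eKD2 (log2 change 1.13, limma adjusted p = 0.030). CTH, which makes cysteine from cystathionine, rose from 5.17 and 5.74 FPKM to 25.9 and 25.3 FPKM (log2 change 2.04, adjusted p = 6.6e-04). CHAC1, which degrades glutathione, rose from 3.02 and 3.63 FPKM to 44.3 and 56.3 FPKM (log2 change 3.56, adjusted p = 6.6e-04). These were 3 of the 13 tested genes of that list, and SLC3A2, the partner chain of SLC7A11, was among those that did not pass (log2 difference 0.51, adjusted p = 0.16). The SLC7A11 call was not stable, since its adjusted p was 0.19 without RD-ES control replicate 1, 0.16 without control replicate 2 and 0.050 without eKD2 replicate 1, with 0.019 to 0.49 over all alternatives.

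SESN2, a stress-induced sestrin that restrains growth signaling, rose in RD-ES eKD2 from 5.11 and 5.56 FPKM to 26.9 and 28.3 FPKM (log2 change 2.18, limma adjusted p = 6.6e-04). TXNIP, which binds and restrains thioredoxin, rose from 42.3 and 37.3 FPKM to 134 and 138 FPKM (log2 change 1.75, adjusted p = 0.0021). The reductase of the thioredoxin system, TXNRD1, did not pass the test in the same libraries. MTHFD2, a mitochondrial folate enzyme counted under NADPH supply, was at 139 and 143 FPKM in controls and 196 and 189 FPKM in eKD2 (log2 change 0.45, adjusted p = 0.033), a call that was lost without any 1 of the 4 RD-ES libraries (adjusted p from 0.066 to 0.13, with 0.028 to 0.38 over all alternatives). With RD-ES fitted alone, on 4 libraries, CTH and CHAC1 were at an adjusted p of 0.12 and SESN2 and TXNIP at 0.11, each the highest over the alternatives.

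In SK-N-MC these genes started from higher control levels, apart from TXNIP, and none rose with eKD2. CHAC1 was at 96.9 and 107 FPKM in controls and 49.97 and 57.1 FPKM in eKD2 (log2 difference -0.92, unadjusted p = 7.0e-04, limma adjusted p = 0.11), SESN2 at 28.0 and 27.8 FPKM and at 15.7 and 17.8 FPKM (-0.71, adjusted p = 0.062, passing in 2 of 12 alternatives with 0.042 to 0.31 over them), and CTH at 15.0 and 14.5 FPKM and at 12.0 and 11.9 FPKM (-0.28, adjusted p = 0.25). In all 3 both eKD2 libraries were below both controls, as in 25.1% of all genes. SLC7A11 was at 68.2 and 68.3 FPKM and at 64.5 and 57.1 FPKM (-0.17, adjusted p = 0.63), MTHFD2 at 355 and 349 FPKM and at 328 and 329 FPKM (-0.097, adjusted p = 0.48), and TXNIP at 25.1 and 28.6 FPKM and at 28.5 and 29.7 FPKM (0.12, adjusted p = 0.68). The eKD2 effect differed between the lines past the adjusted threshold for CHAC1 (-4.48, adjusted p = 0.0012), SESN2 (-2.88, 0.0012), CTH (-2.32, 0.0015, up to 0.074 over the alternatives) and TXNIP (-1.64, 0.013), and for SLC7A11 (-1.30, 0.077) and MTHFD2 (-0.55, 0.070) it did not. The TXNIP difference had an adjusted p of 0.051 without SK-N-MC eKD2 replicate 1, with 0.010 to 0.15 over all alternatives.

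**Figure D3:**
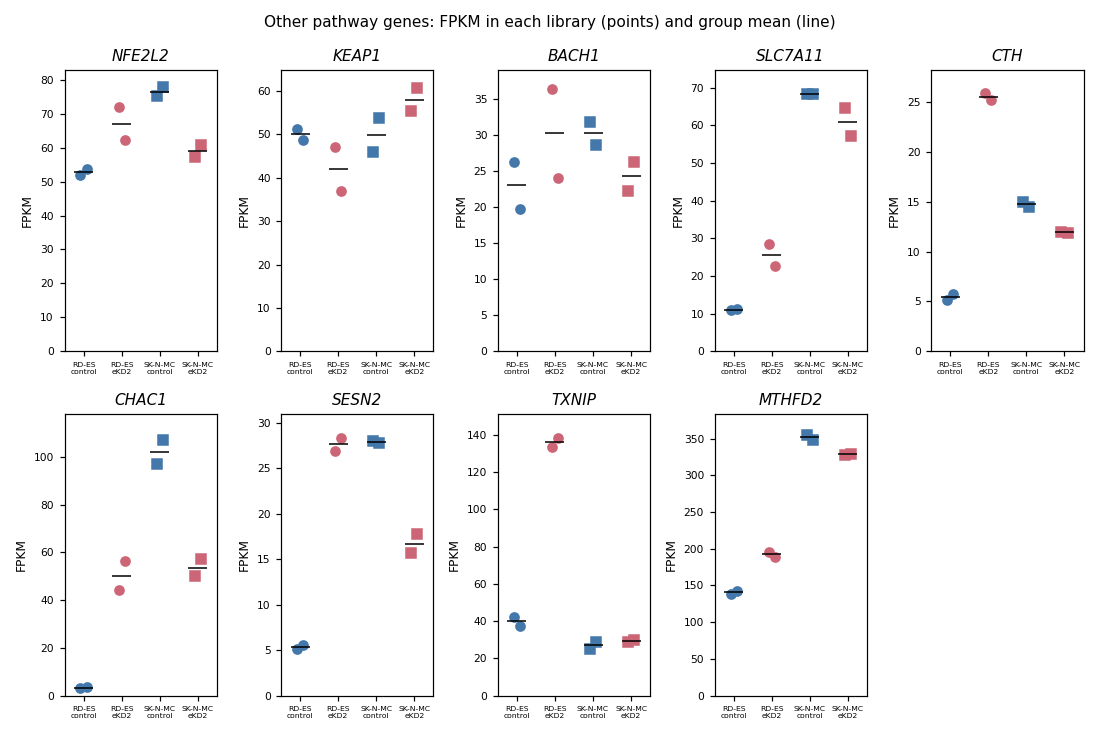
FPKM (vertical axes, starting at 0) of the regulators NFE2L2, KEAP1 and BACH1 and of the 6 other pathway genes that rose in RD-ES eKD2, in the 8 libraries, as points by group with a line at each mean. CTH, CHAC1, SESN2 and TXNIP stand apart in RD-ES eKD2 from RD-ES control, while NFE2L2 with eKD2 lies higher in RD-ES but lower in SK-N-MC.

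CHAC1, chosen with earlier results of these data known, also served as a sequence contrast to the members. The letters TTGCATCA, a stretch of 8 bases found in composite elements bound by ATF4, a factor of the amino acid stress response, occurred on either strand in 0.866% of all 35116 promoter windows, in none of the 7 members with a window and in 3 of 73 other pathway genes, of which CHAC1 was 1. The ARE core was in 2 of those 7 members and 19 of those 73 genes. These are counts of genes, which can have several windows, whereas the 0.866% is a share of windows. The CHAC1 match begins 209 bases from the start, and again marks letters only. Matches in the other genes that rose in RD-ES are not given here, and any part of this element in the rise was not tested.
CHAC1, chr15:40953251-40953280, plus strand, on the gene's strand: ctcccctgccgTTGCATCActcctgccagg

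The remaining lists gave no adjusted call in either line and are described by their counts. Among 17 tested glutathione peroxidases, transferases and glutaredoxins, 14 were lower in RD-ES eKD2 (median -0.049) and 10 higher in SK-N-MC eKD2 (median 0.064), where 56.2% and 47.6% of all genes were above 0. At an unadjusted p under 0.05 these were 1 higher and 1 lower in RD-ES and 4 higher in SK-N-MC. The shares of all genes at that p were 8.49% higher and 3.79% lower in RD-ES, and 5.71% and 7.29% in SK-N-MC. Among the 12 tested heme, iron and quinone enzymes, 8 were higher in the RD-ES comparison and 10 in the SK-N-MC one (medians 0.086 and 0.10; 6 were higher in RD-ES after median scaling), and among the 6 genes of selenoprotein synthesis, on which GPX1, GPX4 and TXNRD1 depend for their selenocysteine, 4 were higher with eKD2 for RD-ES and 2 for SK-N-MC (medians 0.19 and -0.12). SEPSECS, the last enzyme of selenocysteine formation, was in RD-ES at 6.01 and 4.78 FPKM in controls and 9.41 and 8.05 FPKM in eKD2 (log2 difference 0.61, limma adjusted p = 0.19). In SK-N-MC it went the other way, from 9.34 and 8.72 FPKM to 7.02 and 7.29 FPKM (-0.30, adjusted p = 0.41). The 3 tested superoxide and hydrogen peroxide enzymes were below their control means in SK-N-MC (median -0.091) and 2 of them above in RD-ES (median 0.042, turned to -0.026 by median scaling and -0.016 by quantile normalization).

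Some list genes outside the naming rule, like SLC3A2 and SEPSECS, are given because their values bear on the members, and they were chosen after these values were seen. TXN, the thioredoxin that TXNRD1 reduces, was at 338 and 336 FPKM in RD-ES control and 287 and 267 FPKM in RD-ES eKD2, and at 264 and 252 FPKM in the SK-N-MC control libraries and 308 and 300.1 FPKM in the eKD2 ones, without overlap in either line (log2 differences -0.28 and 0.24, limma adjusted p = 0.18 and 0.21, interaction 0.52 with adjusted p = 0.11). Of all genes, 15.1% lay lower without overlap in RD-ES and 22.2% higher in SK-N-MC. In SK-N-MC, AKR1B1, an aldo-keto reductase, was at 4.69 and 5.75 FPKM in controls and 10.9 and 11.7 FPKM in eKD2 (log2 difference 0.99, adjusted p = 0.054), and the ferritin subunits FTH1 and FTL had log2 differences of 0.37 (adjusted p = 0.11) and 0.40 (adjusted p = 0.16). AKR1B1 passed in 4 of 12 alternatives (adjusted p from 0.037 to 0.25) and FTH1 in 1 of 12 (0.049 to 0.37). In RD-ES the log2 differences of AKR1B1, FTH1 and FTL were 0.12, 0.051 and 0.0022, each overlapping its controls. Of the same list, HMOX2 (-0.18) and AKR1C3 (-0.26) were lower in SK-N-MC eKD2, and SLC48A1 (0.025) and CBR1 (0.045) were near 0. PRDX1, a peroxiredoxin that SRXN1 repairs, was at 517 and 548 FPKM in SK-N-MC control and 456 and 450.0 FPKM in eKD2 (-0.23, adjusted p = 0.18), opposite in sign to SRXN1. PRDX1 also lay lower with eKD2 in RD-ES, from 1766 and 1684 FPKM to 1476 and 1521 FPKM (-0.20, limma adjusted p = 0.23). Its interaction was -0.030, so this difference was not particular to SK-N-MC.

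**Figure D4:**
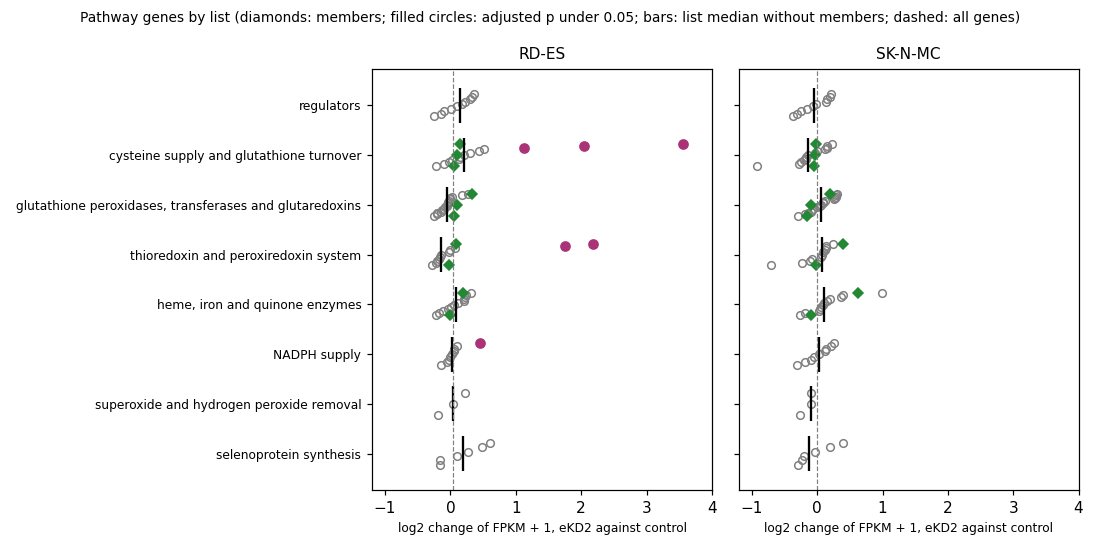
Log2 difference of FPKM + 1, eKD2 against control, of every tested gene in the 8 pathway lists, for RD-ES (left) and SK-N-MC (right). Diamonds are the 10 members, filled circles are genes past the adjusted threshold, bars are list medians without the members, and the dashed line is the median of all genes tested; the 6 filled circles are in RD-ES, and no diamond lies beyond 0.63.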

How the data were processed

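Per the labels and the methods of the study, the authors prepared poly(A) libraries with a kit that does not mark strand, aligned single-end reads of 75 bases to hg19 (GRCh37) with STAR and computed FPKM per gene and library with Cuffnorm. The deposited FPKM values of 60332 genes in 8 libraries (2 in each of 4 groups) were used here, and they are not counts, so the DESeq2 test of the study was not repeated. Depth is not given with the values. It was estimated from the steps of low values in genes with 1 transcript, of which 89.3% to 92.1% came within 0.1 of a whole read, and is rough.

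Comparisons used log2(FPKM + 1) of the 15175 genes whose mean was 1 FPKM or more, in a single limma 3.58.1 model of all 4 groups (R 4.3.3, eBayes with trend, two-sided), with p-values adjusted by Benjamini-Hochberg across those genes. A difference on this scale understates the change of low genes. The limma script was tested on simulated data. Members and lists were chosen with earlier results of these data known. Named beside the members and LOXHD1 were NFE2L2, KEAP1, BACH1, SLC7A11, CHAC1 and any other listed gene past an adjusted p of 0.05 in an eKD2 comparison or in their difference. Alternatives changed the pseudocount, the filter, the scaling, the trend, the groups in the fit and the block, and left out each library in turn. Gene models came from GENCODE on GRCh37 and promoter windows from RefSeq on GRCh38.p14. Without strand, reads of overlapping genes on opposite strands cannot be told apart. For overlaps on the same strand, such as those of GPX1 and SRXN1, strand would not separate the reads either.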

Additional observations from a re-analysis of the deposited data

Results flagged for a closer look

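For 4 pathway genes outside the 10 members, the eKD2 change on the log2 scale differed between the lines in the interaction test (SK-N-MC minus RD-ES, limma with adjustment over all genes), which is what brought them here. The difference was -4.48 for CHAC1 (adjusted p = 0.0012), -2.88 for SESN2 (adjusted p = 0.0012), -2.32 for CTH (adjusted p = 0.0015) and -1.64 for TXNIP (adjusted p = 0.013). Each rose in both RD-ES eKD2 libraries, while in SK-N-MC CHAC1, SESN2 and CTH lay below both controls without passing the test (SESN2 passed in 2 of 12 alternatives) and TXNIP overlapped its controls. With the replicate block CTH and TXNIP lost the call (adjusted p = 0.074 and 0.15, the highest over their alternatives), as TXNIP did without SK-N-MC eKD2 replicate 1 (0.051). None of the 10 members met this rule.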

How the results depend on the processing

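No member passed the adjusted threshold in either eKD2 comparison or in their difference under any alternative, and the 7 members called between the control lines were called under every alternative in which they were tested (HMOX1 was not tested with a mean of at least 5 FPKM). HMOX1 had to differ given how it passed the filter, so its repeated call is no sign of stability. In that comparison GPX4 passed after quantile normalization (adjusted p = 0.011) and with the replicate block (0.047), and NQO1 after median scaling (0.026), after quantile normalization (0.026) and with the groups compared only (0.032). Among other genes in SK-N-MC eKD2, AKR1B1 passed with a pseudocount of 0.1 (0.045), a mean of at least 5 FPKM (0.037), median scaling (0.039) and quantile normalization (0.040), SESN2 with a mean of at least 5 FPKM (0.042) and median scaling (0.044), and FTH1 with median scaling (0.049). Counts over all genes moved more. Of 52 genes called in RD-ES eKD2, 49 in SK-N-MC eKD2 and 37 in the difference, no filter on low values gave 79, 118 and 66, comparing the groups only gave 1 and 13 (no such fit exists for the difference), and a mean of at least 5 FPKM gave 24 in the difference. The replicate block gave 11, 5 and 7. Replicate numbers are only names here, since the replicate differences of control and eKD2 correlated by 0.056 (RD-ES) and 0.027 (SK-N-MC), so the pairing was not used. Leaving out 1 library gave 57 to 71, 48 to 76 and 54 to 81. Directions of small differences turned in some settings, and no turned value passed the test. In RD-ES, median scaling gave -0.015 for GCLM and -0.023 for GSR, and quantile normalization -0.0092 for GCLM. In SK-N-MC, quantile normalization gave 0.018 for GCLC, 0.0073 for GSS and 0.016 for TXNRD1. Without 1 library, RD-ES values ran from -0.021 to 0.13 for GCLM, -0.025 to 0.12 for GSR, -0.15 to 0.36 for GPX1, -0.056 to 0.015 for SRXN1 and -0.22 to 0.19 for NQO1. Those in SK-N-MC ran from -0.14 to 0.11 for GCLC, -0.16 to 0.050 for GCLM, -0.10 to 0.049 for GSS, -0.18 to 0.0031 for GSR, -0.38 to 0.056 for GPX1, -0.069 to 0.038 for TXNRD1 and -0.23 to 0.055 for HMOX1. The difference for GCLC ran from -0.24 to 0.014. The LOXHD1 difference between lines turned to 0.42 with a pseudocount of 0.1. Causes were not tested. Summing rows per symbol was not run, because each member had 1 row. Estimated depth limits HMOX1 in SK-N-MC most.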
